A study of Mus musculus with 9 samples.

Results

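All 703431 unique CLIP tags from wild-type mouse hippocampus are described here, taken from the 3 Mbnl2 CLIP libraries among the 9 samples of the series. Tags were chosen only by being listed in the tag files of these libraries. They numbered 159144 in library 1, 209430 in library 2 and 334857 in library 3, and each number equalled the count of unique tags the authors deposited. The attention is on the tags outside the 10407 peaks that the authors called.

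In CLIP, ultraviolet light links a protein to the RNA it touches in tissue, the complexes are purified and short stretches of the linked RNA are sequenced; a unique tag is one such stretch after reads that look like amplified copies have been collapsed. Mbnl2 is a muscleblind-like zinc finger protein of the brain that binds pre-mRNA in introns, where it regulates alternative splicing, and mRNA in 3'UTRs. CLIP libraries of most RNA-binding proteins also hold tags of abundant RNAs such as ribosomal and mitochondrial RNA, which peak tables built on genes often leave out.

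The series compared splicing in wild-type hippocampus with that in hippocampus lacking Mbnl2 and mapped contacts of the protein in wild type. The CLIP mice were wild type for Mbnl2, labelled female, of a mixed C57BL/6 and 129 SvlmJ strain, and 3 months old (11 to 12 weeks in the protocol); the series text gives the strain as BL6. The labels record no treatment, and they do not say whether each library came from 1 animal or from several, so the spread between libraries may be partly technical. No CLIP library from mice without Mbnl2, nor one without the antibody, was analysed here, so no tag can be set against a background of purification, and in bulk tissue fewer cells of a type and less RNA per cell cannot be told apart. Levels are given in tags per 1000000 unique tags of the library (CPM).

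Part of the tags of the 3 libraries matched across libraries, by position and by a code in the tag name. Each tag name ends with a number read here as the count of collapsed reads (copies) and a 4-letter code read here as a barcode, of which 64 occurred, all with the same last letter. Tags at the same position and strand in libraries 2 and 3 carried the same code in 35813 of 63441 pairs (56.5%), where the code frequencies of the libraries gave 2.24%. The matching shares were 36.3% (13845 pairs) for libraries 1 and 3 and 19.7% (7576 pairs) for libraries 1 and 2. In all, 12.3% of the tags of library 1, 19.8% of library 2 and 14.3% of library 3 had a twin with the same position and code in another library, and 1913 tags occurred in all 3 libraries. In 85.5 to 88.0% of the twin pairs, 1 of the tags had a single copy. The median ratio of copies within a pair was 108 for libraries 1 and 2, 118 for libraries 1 and 3 and 18 for libraries 2 and 3. The read names place the libraries in lanes 5, 6 and 7 of the same run. Whether tags with the same position and code stem from the same molecule was not tested, nor how they came to be listed in several libraries. Results that rest on agreement between libraries are therefore given with and without these shared tags.

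Copies also differed between libraries. The median tag had 26 copies in library 1, 11 in library 2 and 1 in library 3. Single-copy tags made up 22.9%, 34.8% and 55.3% of the libraries in that order, so the deepest library by unique tags is also the one whose tags rest on the fewest reads. Tag length was alike, with medians of 30, 31 and 30 nt and a range of 18 to 39 nt in every library.

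The sex label was checked against chromosome Y. Female mice should give no correctly placed tags there. In libraries 1, 2 and 3, 31, 49 and 86 tags were found, or 0.0195%, 0.0234% and 0.0257% of tags. Without shared tags 27, 38 and 76 were left, and 16, 24 and 31 of these had 2 or more copies. Between 87.2% and 93.9% of the chromosome Y tags lay in its first 1 Mb, where the authors placed peaks in Eif2s3y, which encodes a translation initiation factor subunit, and Ddx3y, which encodes an RNA helicase. Within 10000 nt of the Eif2s3y peak, on its strand, lay 5, 8 and 11 tags of libraries 1, 2 and 3. Xist, the noncoding RNA of the inactive X in females, was not used here, since no mm9 annotation placed its tags. All 3 libraries thus held tags placed on chromosome Y despite the female label. The source of these tags was not tested, nor whether reads of similar sequence elsewhere were placed there.

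**Figure D1:**
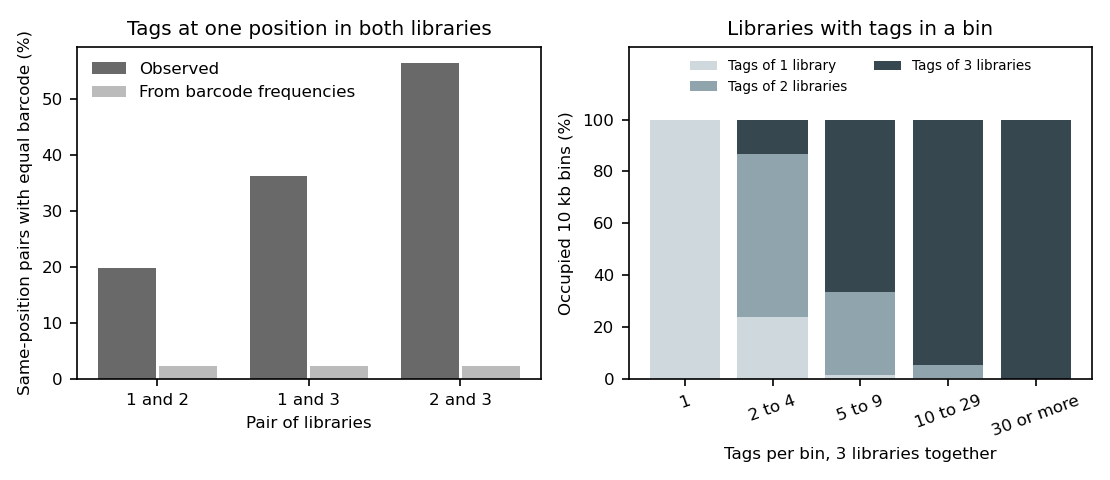
Left, share of same-position tag pairs with an equal code for each pair of libraries (percent), observed and computed from the code frequencies; the observed share ran from 19.7% to 56.5% against about 2.2%. Right, share of occupied strand-specific 10 kb bins outside peaks with tags of 1, 2 or 3 libraries (percent), by the number of tags per bin over the 3 libraries; every bin with 30 or more tags held tags of all 3.

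Most tags lay outside the peaks. The centre of a tag fell inside a peak of its strand for 7628 of 159144 tags in library 1 (4.79%, 95% exact Clopper-Pearson interval 4.69 to 4.90%), 10157 of 209430 in library 2 (4.85%, 4.76 to 4.94%) and 15570 of 334857 in library 3 (4.65%, 4.58 to 4.72%). The libraries lay close together, with a mean of 4.76% ± 0.103 (SD, n = 3). Library 3 was below library 1 (adjusted p = 0.0471) and library 2 (adjusted p = 0.00169) in two-sided Fisher's exact tests, adjusted by Benjamini-Hochberg over 42 tests of shares. The peaks are narrow summits with a median width of 10 nt and 132 kb in all, shorter than the tags, so the choice of the tag centre matters. Tags that overlapped a peak by any length made up 16.0%, 16.1% and 14.5%. Reads made by amplification may stem from the same molecule, so the intervals and the tests hold counting error alone.

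Many tags outside the peaks lay close around them. The authors called the peaks on these same tags, so nearness to a peak of the same strand follows in part from how the peaks were made and is given as a description, with no test. Of tags outside peaks, 32.0% in library 1, 33.2% in library 2 and 30.6% in library 3 lay within 1000 nt of a peak on their own strand. For peaks on the other strand the shares were 0.270%, 0.263% and 0.266%. The nearest class, 1 to 50 nt from a peak, includes tags that overlap a peak with their centre outside it, and it held 16.8% ± 1.03 of tags outside peaks on the same strand and 0.00841% ± 0.00158 on the opposite strand (SD, n = 3).

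**Figure D2:**
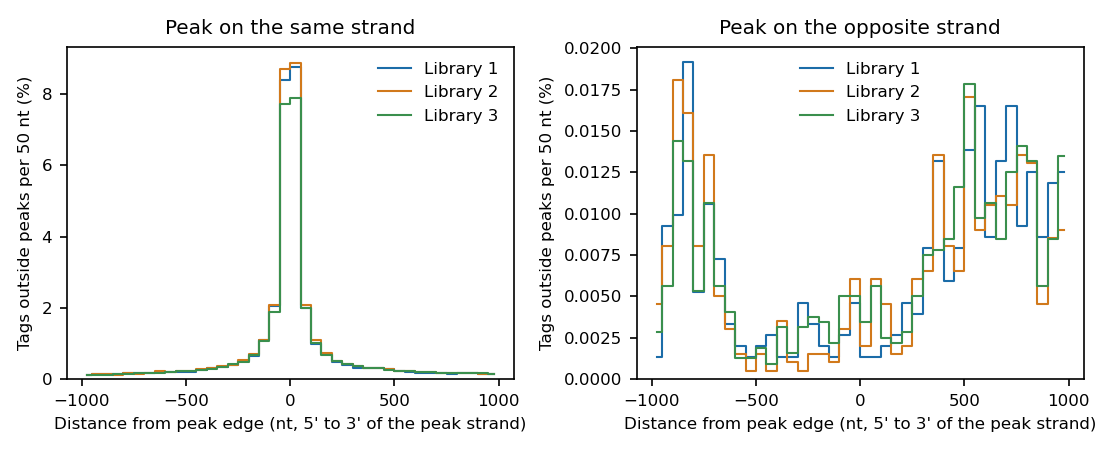
Tags outside peaks per 50 nt as a percentage of all tags outside peaks, by distance of the tag centre from the edge of the nearest peak (nt, negative values upstream), for peaks on the same strand (left) and the opposite strand (right); lines are the 3 libraries and the vertical scales differ. Tags pile up on both sides of same-strand peaks.

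Tags flanked the peaks about evenly. Upstream of the nearest peak lay 49.6%, 49.4% and 49.0% of the tags within 1000 nt in libraries 1, 2 and 3 (mean 49.3% ± 0.278). By the class the authors gave the nearest peak, 82.5% ± 0.306 of these flanking tags belonged to peaks in a 3'UTR, the untranslated end of an mRNA, although 3'UTR peaks were 5742 of the 10407 peaks (55.2%). Intron peaks were 34.0% of the peaks and drew 8.78% ± 0.544 of the flanking tags. Per peak, flanking tags came to 43.7 ± 1.86 CPM for 3'UTR peaks, 19.3 ± 1.67 for coding peaks and 7.54 ± 0.289 for intron peaks. The order 3'UTR, coding sequence, intron was the same in each of the 3 libraries.

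Many tags outside peaks were far from a peak of their strand. On the same strand, 32.7% ± 1.05 of tags outside peaks lay more than 100000 nt from the nearest peak, 23.3% ± 0.469 at 10001 to 100000 nt and 12.1% ± 0.176 at 1001 to 10000 nt. Far tags rested on fewer reads. In library 1, single-copy tags were 13.8% of tags at 1 to 50 nt and 33.1% beyond 100000 nt, in library 2 26.8% and 41.8%, and in library 3 46.0% and 61.5%. Far tags were also slightly shorter, with medians of 29, 30 and 28 nt against 31, 32 and 31 nt next to peaks.

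**Figure D3:**
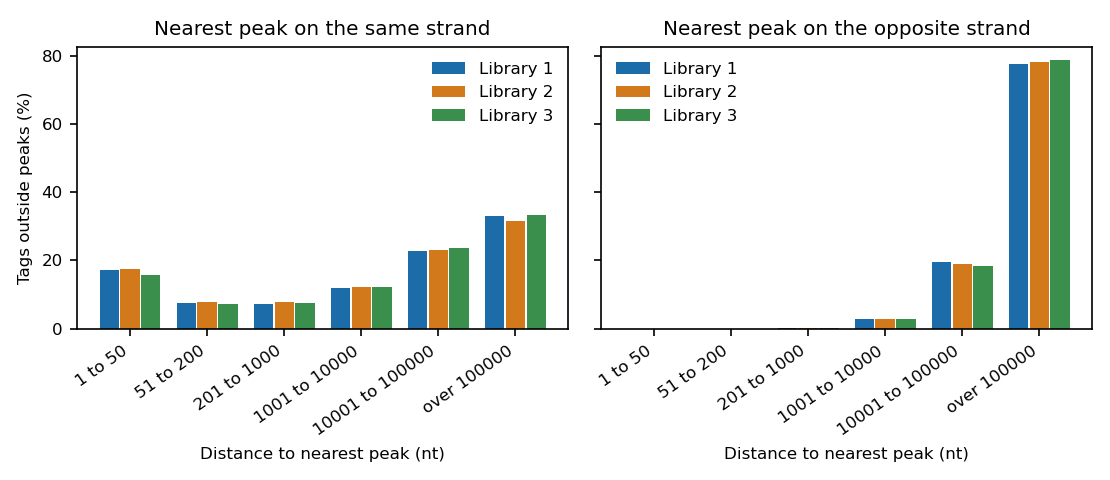
Share of tags outside peaks (percent) by distance class to the nearest peak on the same strand (left) and on the opposite strand (right); bars are the 3 libraries. The class of 1 to 50 nt reaches 15.7 to 17.6% on the same strand and stays below 0.01% on the opposite strand.

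Within genes, tags followed the sense strand. A gene span was taken from the first to the last peak that the authors assigned to a gene with 2 or more peaks, which gave 2267 spans of 130 Mb in all. The strand of a span comes from peaks called on these tags, so its sense share is a description. Of the tags inside spans, 46942 of 47486 in library 1 (98.9%), 63532 of 64074 in library 2 (99.2%) and 97841 of 99033 in library 3 (98.8%) were on the strand of the gene. The mean was 98.9% ± 0.192, and for tags outside peaks alone 98.8% ± 0.218. Sense tags of spans outside peaks made up 27.2%, 27.9% and 26.9% of all tags outside peaks.

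Long neuronal genes carried most of their tags between peaks, as spans in general did. Over all 2267 spans, 87.7%, 87.7% and 87.9% of the sense tags of libraries 1, 2 and 3 lay outside peaks. Of 12 long neuronal genes, 11 had peaks in 2 or more places, and no peak was listed under the name Rbfox1, a splicing regulator. The authors name some genes otherwise than RefSeq does, such as Pcnxl3 for Pcnx3, so a missing name may not be a missing peak. The share of span tags outside peaks ran from 90.4% in Lrp1b, a lipoprotein receptor family member, to 98.0% in Nrxn3, a presynaptic adhesion protein. Opcml, a cell adhesion molecule of the IgLON family, held 264, 403 and 585 sense tags outside peaks in libraries 1, 2 and 3 (1777 ± 135 CPM) over a span of 1042463 nt, against 2, 5 and 8 antisense tags. Dlg2, a synaptic scaffold, held 224, 299 and 565 (1508 ± 156 CPM) and Lsamp, another IgLON adhesion molecule, 235, 304 and 525 (1499 ± 61.2 CPM). In each of these 3 genes the sense tags outnumbered the antisense tags in every library. Per kb of span, tags outside peaks of the 3 libraries together were densest in Ptprd, a receptor phosphatase, at 1.53 per kb, and thinnest in Cntnap2, a neurexin family member, at 0.177 per kb. Shared tags were 14.5 to 23.2% of the span tags of these 11 genes.

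Of the genes chosen as markers of hippocampal cell types, some of those of neurons, oligodendrocytes and astrocytes held span tags in numbers. In the neuron list 7 of 10 genes had peaks, 5 of them 2 or more, and the spans summed to 5806, 5300 and 4668 CPM in libraries 1, 2 and 3. Prox1 and Wfs1 had 1 peak each, so their spans were these peaks of 2 and 4 nt, and no tag centre fell there. Tags around such a peak are not counted, so this gives no level for these genes. Snap25 alone gave 2741 ± 465 CPM outside peaks. In the oligodendrocyte list 4 of 6 had peaks and the sums were 6661, 4985 and 4142 CPM, highest in library 1 and lowest in library 3. Of these genes Cnp had 1 peak, so its span was that peak of 4 nt, and no tag centre fell in it. Mbp, which encodes myelin basic protein and is part of this list, gave 521, 524 and 656 sense tags outside peaks, or 3274, 2502 and 1959 CPM. Its mean of 2578 CPM is a large part of the mean sum of 5263 CPM, so its order of libraries is not separate from that of the list. In the astrocyte list 5 of 6 had peaks, with sums of 1646, 1666 and 1386 CPM. Endothelial genes, 4 of 5 with a single peak each, summed to 31.4, 4.77 and 14.9 CPM. Their spans were the peaks themselves, of 5 to 20 nt, so these sums hold only tags inside peaks. None of the 5 microglia genes and none of the 5 blood genes had a peak listed under its name. Spans are set by peaks and differ in length, so these sums do not compare the lists with each other.

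The chromosomes differed in tag density. Outside peaks, chromosome 11 held 560 ± 10.1 and chromosome 19 held 554 ± 36.1 tags per Mb, for every 1000000 tags outside peaks, the 2 highest among the 19 autosomes and X, and chromosome X held the lowest at 242 ± 4.65 (SD, n = 3). A 7 kb cluster named below held 1148, 1232 and 1662 of the chromosome 19 tags in libraries 1, 2 and 3. All tags outside peaks on chromosome 19 numbered 5528, 6629 and 10294, and its rank without the cluster was not computed. Against the tags inside peaks, 16 of these 20 chromosomes differed in the same direction in all 3 libraries, 8 with a higher and 8 with a lower share outside. The largest differences were a lower share outside on chromosome 11, with differences of -0.345, -1.17 and -1.21 percentage points in libraries 1, 2 and 3, and a lower share on chromosome 4, with -1.06 to -0.631 points. For each an exact sign-flip permutation test gave p = 0.25 (two-sided), the smallest it can give.

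Over the genome the strands were nearly even. The plus strand held 50.8%, 50.7% and 50.3% of tags outside peaks and 3815 of 7628, 5114 of 10157 and 7776 of 15570 tags inside them. The difference was 0.503 percentage points on average, positive in 3 of 3 libraries (exact sign-flip permutation test, two-sided p = 0.25). Without the mitochondrial genome and the ribosomal locus the share outside peaks was 50.2%. Single chromosomes departed further, from 65.8% ± 1.15 plus on chromosome 18 to 41.6% ± 0.607 on chromosome 14.

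Chromosomes 7, 12, 17 and 19 were checked without the tag cluster named on each below, and on 17 and 19 the side of an even split changed in 2 or more libraries. On chromosome 17 the plus share was 54.9%, 50.3% and 46.6% in libraries 1, 2 and 3, and 44.1%, 41.7% and 42.5% without the ribosomal cluster described next. On chromosome 19 it was 41.0%, 41.8% and 42.1%, and 51.7%, 51.4% and 50.2% without the cluster at 5796001 to 5803000 nt. Without the cluster all 3 libraries were below 50% on chromosome 17, where 2 had been above it, and above 50% on chromosome 19, where all had been below.

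**Figure D4:**
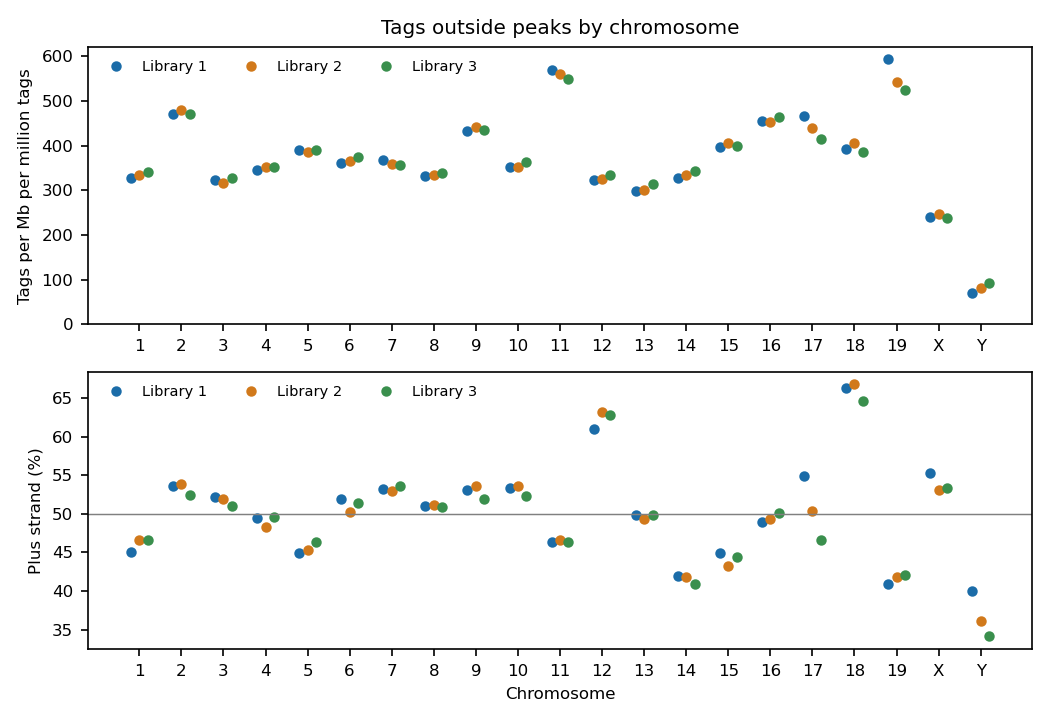
Tags outside peaks by chromosome. Top, tags per Mb of chromosome (up to the last tag) per 1000000 tags outside peaks; bottom, share on the plus strand (percent), with a line at 50%. Points are the 3 libraries, and chromosome 17 shows the widest spread of strand share between them.

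A ribosomal locus held the 10 kb bin outside peaks with the highest mean level over the 3 libraries. The locus lies at chr17:39982001-39986000 on the plus strand (mm9), and RefSeq lists the 18S ribosomal RNA-related sequence Rn18s-rs5 among the 121 genes between the flanking peak genes Gabbr1 and Cd2ap; the table is for GRCm38, so it was used for gene order only, and the name ribosomal rests on that order. It held 1303 tags in library 1 (0.819%, 95% exact interval 0.775 to 0.864%), 1239 in library 2 (0.592%, 0.559 to 0.625%) and 892 in library 3 (0.266%, 0.249 to 0.284%), and no tag on the opposite strand in any library. The share was highest in library 1 and lowest in library 3, and the intervals did not overlap. Two-sided Fisher's exact tests between the libraries, adjusted in the same family, gave p = 8.79e-16 for libraries 1 and 2, 1.44e-149 for 1 and 3 and 1.83e-74 for 2 and 3; they compare these libraries, not conditions. Counted once per position, the locus held 516, 506 and 551 distinct tags, and its mean share was 0.252% in place of 0.559%.

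The ribosomal tags fell in a few sharp windows. Of 100 nt windows counted from the start of the locus, the fullest began at 2400 nt, with 327, 297 and 136 tags (2055, 1418 and 406 CPM). The window at 2700 nt held 174, 196 and 144 tags and the one at 2100 nt held 211, 153 and 118. No peak was called at the locus, but 20 of the authors' 557 crosslink mutation sites lay there, between 39983430 and 39984858, and 84.0 to 87.3% of the locus tags had their centre between the first and the last of them. Ribosomal tags were also well supported, with median copies of 58, 48 and 13 and 5.30%, 7.59% and 21.0% of single copy. Shared tags were 24.4%, 27.1% and 22.8%, and without them 985, 903 and 689 tags were left.

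Ribosomal sequence within genes followed the same order of libraries. The authors classed 14 peaks in 10 genes as rRNA repeats, 12 of them in introns and 2 in 3'UTRs. Tags overlapping these peaks summed to 980, 683 and 287 CPM in libraries 1, 2 and 3. The largest, in an intron of Cdk8 (a kinase of the Mediator complex), was overlapped by 73, 60 and 37 tags and gave 285 ± 174 CPM. Next was 2610528E23Rik with 21, 18 and 11 tags. Multiple near-identical copies of ribosomal sequence exist, and the sources used here do not say how reads were placed among them.

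The mitochondrial tags listed were mostly on 1 strand and at 1 end. The mitochondrial genome held 398 tags in library 1 (0.25%, 95% exact interval 0.226 to 0.276%), 634 in library 2 (0.303%, 0.280 to 0.327%) and 860 in library 3 (0.257%, 0.240 to 0.275%). Library 2 stood above the others (adjusted p = 0.00531 against library 1 and 0.00384 against library 3, two-sided Fisher's exact tests), and libraries 1 and 3 were not told apart (adjusted p = 0.743, same test). The tests take each tag as independent and were not repeated without shared tags. In libraries 1, 2 and 3, shared tags were 11.6%, 18.9% and 14.9% of the tags on the mitochondrial genome. No tag lay in a peak, and no crosslink mutation site was listed there, in contrast to the ribosomal locus. The plus strand held 97.7%, 96.7% and 97.4% of these tags.

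On the plus strand the first 3000 nt of the mitochondrial genome carried 313 of 398, 487 of 634 and 629 of 860 tags (78.6%, 76.8% and 73.1% of the mitochondrial tags). RefSeq places both mitochondrial ribosomal RNA genes among the first 4 of the 37 genes on the molecule, with transfer RNA genes between and around them. The fullest window of 500 nt, at 1001 to 1500, held 85, 146 and 179 tags (589 ± 94.0 CPM). It was followed by 501 to 1000 (409 ± 44.2 CPM), 2501 to 3000 (314 ± 72.4), 1501 to 2000 (290 ± 32.2), 1 to 500 (287 ± 43.5) and 3501 to 4000 (198 ± 53.2). All of these windows held tags of every library. From 6501 to 11000 only 2 tags were listed in the 3 libraries together. Whether reads of this stretch could be told from similar sequence elsewhere in the genome was not tested, so the gap does not show a lack of contact.

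**Figure D5:**
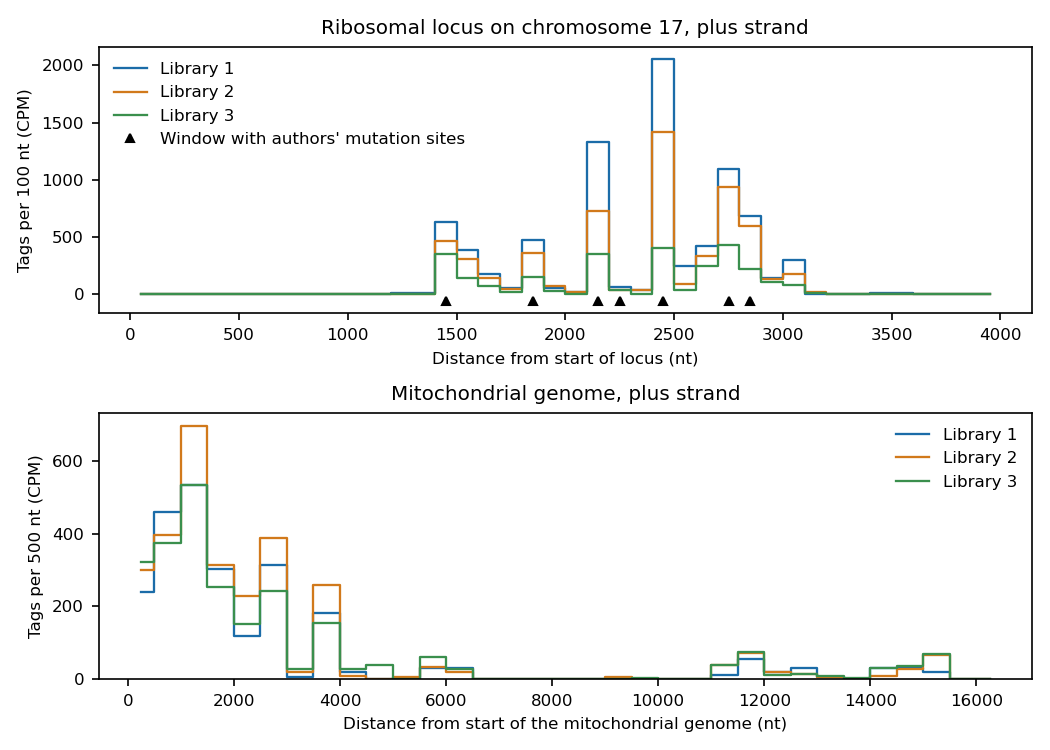
Tags per window in CPM along the plus strand of the ribosomal locus (top, 100 nt windows, distance from the start of the locus in nt) and of the mitochondrial genome (bottom, 500 nt windows, distance from its start in nt); lines are the 3 libraries and triangles mark windows with mutation sites of the authors. At the ribosomal locus library 1 is highest and library 3 lowest in the fullest windows, while on the mitochondrial genome the 3 lines lie closer together.

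Outside peaks, a few bins of 10 kb held many of the tags. Of 125031 strand-specific bins with a tag, the 12 with the highest mean level held 3.24% of all tags outside peaks, and the top 1% of occupied bins held 24.2%, 25.5% and 25.6% in libraries 1, 2 and 3. By mean over libraries the ribosomal bin came first, with 8213, 5949 and 2676 CPM; in library 3 alone the chromosome 19 bin and the Snap25 bin named next were higher. Second was a bin on the minus strand of chromosome 19 (5790001 to 5800000) with 958, 1004 and 1331 tags, or 6020, 4794 and 3975 CPM. It lies between peaks in Pcnxl3 and Capn1, and RefSeq lists the nuclear noncoding RNAs Malat1 and Neat1 among the 20 genes between these. The tags formed a cluster of 7 kb (5796001 to 5803000), and none lay on the opposite strand. The bin held 24 mutation sites, the most of any bin.

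Other bins without a peak gene also carried clusters, of 14 kb on chromosome 12 and 4 kb on chromosome 7. On the plus strand of chromosome 12 (bin 110800001 to 110810000) lay 390, 536 and 665 tags (2332 ± 305 CPM), with 7 mutation sites. This bin sits between peaks in Wars and Dio3, where RefSeq lists the imprinted noncoding RNAs Meg3, Rian and Mirg among 108 genes. On the plus strand of chromosome 7 (bin 51610001 to 51620000) lay 314, 427 and 514 tags (1849 ± 274 CPM) with 10 mutation sites, to the left of the first peak of Syt3; the gene beneath it was not determined here. Clusters of these 2 bins had no tag on the opposite strand. None of 12 nuclear noncoding RNAs looked up by name had a peak in the authors' table, so their level could not be read from peaks.

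Other top bins lay on known brain genes. Snap25, a synaptic vesicle fusion protein, held 601, 755 and 910 tags outside its peaks in a bin of chromosome 2 (3776, 3605 and 2718 CPM) and 18 mutation sites. Slc1a2, the main glial glutamate transporter, held 402, 555 and 662 tags (2384 ± 358 CPM) in a bin where 67.6% of the tags outside peaks were more than 1000 nt from a peak of that strand and 9.51% were within 50 nt of one. Mbp (2191 ± 569 CPM), Gpm6b (2082 ± 211 CPM), App (2072 ± 270 CPM) and Chn1 (1715 ± 285 CPM) followed; they encode a myelin protein, a neuronal membrane glycoprotein, the amyloid precursor protein and a Rac GTPase activator. App held 21 mutation sites. Shared tags made up 10.1 to 24.8% of these 12 bins.

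The bins that differed most between libraries were of another kind. Among 2866 bins with 30 or more tags, the median ratio of the highest to the lowest library was 0.54 on the log2(CPM + 1) scale. The 8 largest ratios ran from 2.51 to 4.23 on that scale. Ttr, which encodes transthyretin and is abundant in choroid plexus, held 51, 432 and 246 tags outside its peak (320, 2063 and 735 CPM), low in library 1 and high in library 2. Of 6 choroid plexus marker genes, 3 (Ttr, Folr1 and Clic6) had 1 peak each, and the tags inside these peaks summed to 6.28, 167 and 38.8 CPM. No peak was listed under the names Kl, Aqp1 and Kcnj13. Ttr itself, chosen for its ratio, gave 1, 30 and 7 of the tags inside these peaks, Folr1 0, 1 and 2 and Clic6 0, 4 and 4. Choroid plexus lies next to the hippocampus, and whether it was dissected along was not tested.

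The others were low bins. A plus-strand bin on chromosome 17 (80460001 to 80470000), between Hnrpll and Sfrs7, held 3, 1 and 36 tags, and a minus-strand bin on chromosome 14 (115490001 to 115500000) held 6, 4 and 51. Both were highest in library 3, as was a minus-strand bin on chromosome 4 (53850001 to 53860000) with 7, 2 and 24 tags. A bin on chromosome 3 (87420001 to 87430000, plus strand) held 16, 3 and 13. In Nfic, a transcription factor gene, 2, 11 and 29 tags were found, in Fgf14, a regulator of sodium channels, 2, 17 and 12, and in Zranb2, a splicing factor gene, 2, 16 and 24. Apart from Ttr, these ratios rest on 1 to 4 tags in the lowest library.

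Over all bins, the share with tags of all 3 libraries followed the number of tags per bin, as a description: a bin with many tags rarely lacks a library whatever its levels. Of occupied bins, 21.3% held tags of all 3 libraries and 56.0% of 1 library only. Among 61060 bins with 1 tag agreement is not possible, and the share with all 3 libraries rose to 13.1% at 2 to 4 tags, 66.8% at 5 to 9 and 8448 of 8897 bins at 10 to 29. All 2866 bins with 30 or more tags had tags of all 3. Occupied bins numbered 55643, 63435 and 87614; at the depth of library 1 (151516 tags outside peaks) the hypergeometric formula gave 53811 for library 2 and 56931 for library 3.

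Over all occupied bins, levels per bin correlated weakly, as a description over bins that share libraries and depth. Pearson's r over log2(CPM + 1) was 0.373 for libraries 1 and 2, 0.362 for 1 and 3 and 0.421 for 2 and 3, with Spearman's rho of 0.290, 0.277 and 0.339. Without shared tags r was 0.312, 0.288 and 0.303, so the pair with the most shared tags no longer stood above the others. Of the 125031 occupied bins 61060 held 1 tag, and over bins with 10 or more tags, shared tags included, the mean r was 0.681. The share of bins with all 3 libraries was 17.8% without shared tags. In the bins with 30 or more tags, chi-square per degree of freedom for equal shares of each library was 1.53, and 1.69 over 2318 such bins without shared tags, where counting error alone gives 1.

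Most crosslink mutation sites of the authors also lay outside peaks. Of 557 sites, listed at an FDR of at most 0.001, 484 (86.9%) had their position in no peak of their strand, and 95 were more than 100000 nt from one. The peaks cover 132 kb in all, at a median width of 10 nt. By tag centre, 4.76% ± 0.103 of all tags lay inside peaks, so sites lay inside peaks more often than tags did. All 152 sites that the authors assigned to no gene were outside peaks. Only 18 of the 10407 peaks carried no gene, so such a site could hardly lie in a peak. The bins with most sites were those of chromosome 19, App, the ribosomal locus and Snap25, with 24, 21, 20 and 18, of which all but 1 site in App were outside peaks. No site lay on chromosome Y or the mitochondrial genome.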

How the data were processed

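Tags are 1 line each in the deposited files; reads were aligned by the authors to mm9, and the submitters' processing notes name Novoalign, with no settings in the sources used here. The deposited score per tag was not used. Peak heights, library totals and tags per mutation site are counts the authors deposited; peaks were called at P below 0.01 after Bonferroni correction, per the file headers, and their heights equalled the tags of the 3 libraries together for 10407 of 10407 peaks. Repeat coverage of a peak is a fraction the authors deposited and was not used, only the repeat class. FDRs of mutation sites (p-values after correction) are those the authors deposited, at most 0.001.

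A tag was placed by its centre and strand, and was shared if its position and code occurred in another library. Bins were 10 kb per strand, with a pseudocount of 1 CPM for logs. Shares carry 95% exact Clopper-Pearson intervals (counting error only) and were compared between libraries by two-sided Fisher's exact tests adjusted over 42 tests. These tests take each tag as independent and do not allow for tags shared between libraries. Paired differences used exact sign-flip permutation over 3 libraries. The named bins are the 12 with the highest mean CPM, the 6 fullest mitochondrial windows and the 8 largest ratios among bins of 30 or more tags; 1 of the 12 is not reported here. Clusters join 1 kb windows with 5 or more tags; they, the flanking side and the class of the nearest peak were chosen after seeing the data. The CLIP tags and all gene lists were chosen with earlier results of these data known. Distances to peaks, exact intervals, Fisher's exact tests, bin dispersion and the ranking of ratios were tested on simulated data. Shared tags, gene spans, clusters and the ribosomal locus were not. No genome of the mm9 build was used, so no sequence is printed; gene names between peaks come from RefSeq (GRCm38) by order only. Tables were made in Python 3.11.15 with pandas 2.3.3 and numpy 2.4.6, tests with scipy 1.17.1 and plots with matplotlib 3.10.9.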

Additional observations from a re-analysis of the deposited data

Results flagged for a closer look

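Mutations counted by the authors per library were not used in the comparisons of tags. Set against unique tags, library 1 held 26.3 deletions per 100 tags, library 2 held 9.47 and library 3 held 7.88. Insertions came to 5.29, 1.85 and 1.13 per 100 tags in the same order. Substitutions came to 102 per 100 tags in library 1, 38.1 in library 2 and 26.9 in library 3. All of these totals are highest in library 1 and lowest in library 3, as are the copies per tag (medians 26, 11 and 1); the part of copies in the mutation totals was not tested.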

How the results depend on the processing

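Of 85 alternative values, 49 stayed within 1 SD of the libraries (within the 95% binomial interval for the share of bins with all 3 libraries, and within 1.5 times for a count) and 36 did not. The share of tags inside peaks, 4.76%, was 15.5% by any overlap, 24.6% within 100 nt, 1.99% with peaks of height 10 or more and 4.60% over distinct positions. The plus-strand share outside peaks, 50.6%, was 50.2% without the mitochondrial genome and the ribosomal locus. The mitochondrial share, 0.270%, was 0.230% over distinct positions and 0.325% for tags of 25 nt or more, and the ribosomal share, 0.559%, was 0.252% over distinct positions. The share near a same-strand peak, 32.0%, was 44.1% at 10000 nt and 23.6% with peaks of height 10 or more, and the sense share was 98.1% in spans widened by 10000 nt. Mean r over bins, 0.385, was 0.0989 at 1 kb, 0.683 at 100 kb, 0.605 with a pseudocount of 5 CPM and 0.681 for bins of 10 or more tags. Bins with all 3 libraries, 21.3%, were 8.68% at 1 kb, 39.0% at 100 kb and 24.5% with 2 or more tags per library. Of occupied bins, 87614 in library 3 compare with 56931 expected at the shallowest depth.

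Chosen after seeing the data, leaving out shared tags gave 4.27% inside peaks, r of 0.301 and 17.8% of bins with all 3 libraries; keeping them in the library with the most copies gave 4.51%, 0.328 and 19.0%. Tags with 2 or more copies gave 4.90% inside peaks, 0.318% mitochondrial, 35.7% near a peak, 99.6% sense, r of 0.271, 21.8% of bins with all 3 libraries and 8.87% of tags outside peaks on chromosome 2 (8.61% over all tags).

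Leaving out each library in turn, the share inside peaks was 4.72 to 4.82%, plus strand 50.5 to 50.7%, mitochondrial 0.253 to 0.280%, ribosomal 0.429 to 0.705%, chromosome Y 0.0214 to 0.0245%, near a peak 31.3 to 32.6%, sense 98.8 to 99.0%, r 0.362 to 0.421, chromosome 2 8.56 to 8.65%, and bins with tags of both remaining libraries 33.7 to 38.4%. No paired analysis was possible because the CLIP libraries form 1 group, so replicate numbers pair no groups; differences within a library, such as outside minus inside peaks, are another matter. Depth limits what sparse bins can show, since bins with 1 tag cannot hold several libraries; the cause of the other shifts was not tested.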
